A study of Mus musculus with 12 samples.

Results

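The RNA levels of 9 genes of the major histocompatibility complex (MHC) system were described in BM progenitors of young mice: the class I genes H2-K1, H2-D1 and B2m, and the class II genes Cd74, H2-Aa, H2-Ab1, H2-Eb1, H2-DMa and Ciita. They were taken by gene name from the deposited table, where all 9 of the 9 listed names were found among 32285 genes. MHC class I molecules sit on most nucleated cells and show peptides from inside the cell to CD8 T cells. MHC class II molecules show peptides from endocytosed protein to CD4 T cells, and are best known from dendritic cells, B cells and macrophages, in which the coactivator CIITA switches their genes on. Multipotent progenitors stand upstream of all of these cells, and CLPs give rise to lymphocytes and to some dendritic cells.

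The study compared Ly6d- CLPs, common lymphoid progenitors without surface Ly6d (a marker of commitment to B cells), with the more primitive Flk2+ MPPs, at 1 and 3 months of age (1MO and 3MO), to ask what changes in the progenitors of T cells early in life. Poly(A) RNA was sequenced from 3 samples each of 1MO Ly6d- CLPs, 3MO Ly6d- CLPs, 1MO Flk2+ MPPs and 3MO Flk2+ MPPs, 12 libraries in all. Every sample was labelled as WT bone marrow of strain C57BL6/J, and no treatment is named. Cells were sorted after depletion of BM cells carrying lineage antigens, among them B220, CD3, CD8, CD11b, Gr-1 and Ter-119, with a cocktail that as listed holds no antibody to the dendritic cell integrin CD11c. The 3 samples of a group are described as independent repeats of the experiment. Both populations were sorted from each mouse, but the labels do not say which libraries share a mouse, and p-values measure the spread between them.

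The libraries held between 8889083 and 20677785 estimated counts, and between 12379 and 15512 genes had a count. Levels are given as CPM, counts scaled to a common library total with TMM normalization, and the 13367 genes with enough counts for edgeR's filter were tested, all 9 MHC genes among them. Replicate 1 of 3MO Flk2+ MPPs stood apart, with the fewest genes with a count (12379) and the lowest mean correlation with its group (0.899, against 0.926 to 0.956 for the other libraries), and it was the lowest of its group for 7 of the 9 MHC genes. The sort labels were checked against their markers. Il7r, the receptor chain that marks CLPs, stood at 299 to 402 CPM in Ly6d- CLPs and 5.24 to 18.5 CPM in Flk2+ MPPs, and Kit stood at 222 to 377 CPM against 672 to 797 CPM. The 9 MHC genes together took between 0.125% and 0.258% of the counts of a library.

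Most of these genes lie in the MHC of chromosome 17. In GRCm38 coordinates of GENCODE M21, H2-K1 spans chr17:33996017-34000347 on the minus strand, H2-DMa chr17:34119541-34139101 on the plus strand, H2-Ab1 chr17:34257689-34269419 on the plus strand, H2-Aa chr17:34282744-34287823 on the minus strand, H2-Eb1 chr17:34305867-34316674 on the plus strand and H2-D1 chr17:35262730-35267499 on the plus strand. Outside the complex, B2m spans chr2:122147686-122153083 and Ciita chr16:10480059-10528418, both on the plus strand, and Cd74 lies on chromosome 18. Ciita overlaps Dexi and H2-DMa overlaps Brd2 on the other strand. The libraries were made with a directional kit, but whether the counting used the strand is not given in the sources used here, so values of these genes are uncertain where they overlap. The class I heavy chains resemble each other. Of the distinct 31-base words in the transcripts of H2-K1, 21.8% also occur in transcripts of another gene, 15.8% in those of H2-D1, and for H2-D1 the share is 27.5%. Values of H2-K1 and H2-D1 are therefore uncertain to the extent that the counting divided such reads between them. For B2m, H2-Aa and H2-DMa that share is 0%, and it is 0.333% for Ciita, 0.578% for H2-Ab1, 1.28% for H2-Eb1 and 1.66% for Cd74.

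Compared per length, the class I genes were the most abundant of the 9 and Ciita the least. Over the 12 libraries the median CPM per kilobase of transcript was 597 for B2m, 416 for H2-K1 and 237 for H2-D1. It was 36.0 for H2-DMa, 9.12 for H2-Ab1, 8.55 for Cd74, 4.42 for H2-Aa, 1.14 for H2-Eb1 and 0.980 for Ciita. H2-K1 was above H2-D1, H2-D1 above H2-DMa, and H2-DMa above H2-Ab1 in 12 of 12 libraries. B2m was above H2-K1 in 11 of 12, Cd74 above H2-Aa in 10 of 12 and H2-Aa above H2-Eb1 in 12 of 12. Neighbours without a fixed order were H2-Ab1 and Cd74, with H2-Ab1 above in 5 of 12 libraries, and H2-Eb1 and Ciita, with H2-Eb1 above in 7 of 12. H2-DMa, which encodes the alpha chain of the H2-DM exchange factor that loads peptide onto class II, thus stood above the class II chains that it serves in every library. This order is uncertain, because H2-DMa overlaps Brd2 and strand use in the counting is not given. The genes of its beta chains, H2-DMb1 and H2-DMb2, stood lower than H2-DMa in CPM in every library.

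**Figure D1:**
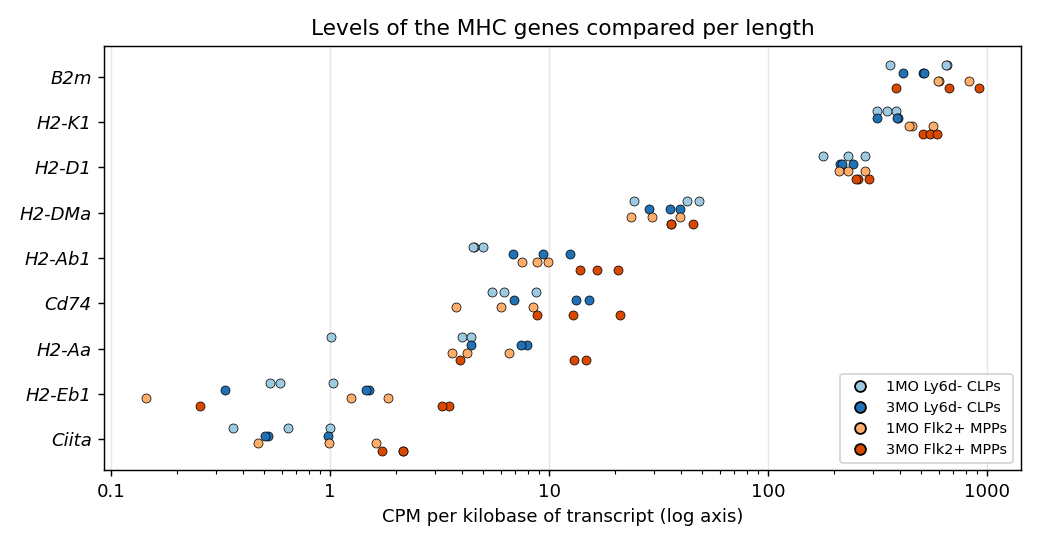
CPM per kilobase of transcript (log axis) of the 9 MHC genes, ordered by their median, with 1 point per library and colours for the 4 groups. The medians run from 597 for B2m to 0.980 for Ciita, and H2-DMa lies between the class I genes and the class II chains with no overlap on either side. H2-DMa overlaps Brd2 on the other strand, so its values are uncertain.

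H2-K1 and H2-D1 encode the classical class I heavy chains H-2K and H-2D, and B2m encodes beta-2 microglobulin, the light chain without which they do not reach the cell surface. Their promoters are shown because these genes share control elements in the region just before the start, and class II promoters share part of them. RefSeq promoter windows (GRCm38.p6, 250 bases before to 50 bases after the annotated start) were matched for 6 of the 9 genes, without H2-Ab1, Cd74 and Ciita. Capitals mark matches to 4 words searched on both strands: ATTGG (the core of the Y box, CCAAT on the other strand), GGGGATTCC (a kappa B core), GAAANNGAA (a core of interferon response elements) and AGNNACNGA (a core of the X box). No match overlapped another in the windows shown.
H2-K1 (chr17:34000298-34000597, minus strand): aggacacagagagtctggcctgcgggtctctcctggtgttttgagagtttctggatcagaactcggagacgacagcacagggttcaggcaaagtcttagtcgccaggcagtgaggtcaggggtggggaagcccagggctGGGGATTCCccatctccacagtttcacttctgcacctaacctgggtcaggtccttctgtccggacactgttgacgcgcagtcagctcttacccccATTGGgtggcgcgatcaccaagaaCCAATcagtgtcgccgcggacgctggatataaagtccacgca
H2-D1 (chr17:35262844-35263143, plus strand): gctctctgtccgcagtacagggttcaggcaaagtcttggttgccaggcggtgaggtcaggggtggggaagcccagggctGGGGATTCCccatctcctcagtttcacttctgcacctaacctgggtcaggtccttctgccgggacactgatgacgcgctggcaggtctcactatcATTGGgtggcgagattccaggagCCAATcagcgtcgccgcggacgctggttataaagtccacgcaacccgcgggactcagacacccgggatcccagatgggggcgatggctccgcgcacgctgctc
B2m (chr2:122147437-122147736, plus strand): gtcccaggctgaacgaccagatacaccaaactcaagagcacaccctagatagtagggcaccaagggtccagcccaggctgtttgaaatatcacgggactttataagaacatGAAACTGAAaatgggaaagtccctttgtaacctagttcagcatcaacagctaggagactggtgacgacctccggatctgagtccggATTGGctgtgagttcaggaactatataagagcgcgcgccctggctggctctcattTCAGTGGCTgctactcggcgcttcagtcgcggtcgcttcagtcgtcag
H2-Aa (chr17:34287774-34288073, minus strand): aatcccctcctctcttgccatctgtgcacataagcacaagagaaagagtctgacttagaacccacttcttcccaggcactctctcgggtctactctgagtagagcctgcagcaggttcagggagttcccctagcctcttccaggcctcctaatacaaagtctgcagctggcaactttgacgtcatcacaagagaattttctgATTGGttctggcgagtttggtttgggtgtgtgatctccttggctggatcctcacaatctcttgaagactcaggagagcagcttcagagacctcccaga
H2-Eb1 (chr17:34305617-34305916, plus strand): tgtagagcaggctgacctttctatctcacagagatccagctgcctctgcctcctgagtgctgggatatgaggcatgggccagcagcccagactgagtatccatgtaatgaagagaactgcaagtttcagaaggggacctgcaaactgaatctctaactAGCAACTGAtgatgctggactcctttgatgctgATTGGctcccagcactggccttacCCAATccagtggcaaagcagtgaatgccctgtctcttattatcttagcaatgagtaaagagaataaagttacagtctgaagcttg
The window used for H2-DMa, the sixth (chr17:34122582-34122881), held none of the 4 words and is not shown. For H2-K1 and H2-DMa 2 windows are listed, and only the first of each was searched. So H2-DMa cannot be said to lack these words. ATTGG was in each of the windows shown, but it is common and was found in 37.4% of all 32851 promoter windows. In H2-Aa it covered bases -48 to -44 and in B2m bases -53 to -49, counted so that the last base before the start is -1. GGGGATTCC was in both heavy chain windows, at -111 to -103 in H2-K1 and -171 to -163 in H2-D1, and in 0.25% of all windows. These positions are not comparable, because the annotated starts lie at different places in the shared sequence. The stretch tataaagtccacgca lies after the start in H2-K1 and before it in H2-D1. GAAANNGAA was in the B2m window at -139 to -131 and in 8.56% of all windows. Only this order of GAAA and GAA was searched. The H2-K1 and H2-D1 windows hold the stretch cagtttcacttct after GGGGATTCC, which on its other strand has GAA before GAAA. The search could not match that order, so these windows cannot be said to lack an interferon response element. AGNNACNGA was in the H2-Eb1 window at -92 to -84, upstream of its ATTGG at -59 to -55, on the other strand of the B2m window at 3 to 11, where base 1 is the annotated start, and in 17.7% of all windows. These matches describe the sequence, and no binding was measured.

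The class I genes did not pass the test for age in either cell type. In Ly6d- CLPs, H2-K1 stood at 549, 604 and 491 CPM at 1MO and at 616, 494 and 609.7 CPM at 3MO. The Flk2+ MPP libraries held 710.5, 689 and 883 CPM at the younger and 796, 857 and 919.8 CPM at the older age. The ages overlapped in both cell types, with log2 fold changes (3MO minus 1MO) of 0.07 ± 0.15 (SE) for Ly6d- CLPs and 0.17 ± 0.15 for Flk2+ MPPs. H2-D1 was at 374, 582 and 485 CPM in 1MO Ly6d- CLPs and at 448, 509.9 and 456 CPM in 3MO Ly6d- CLPs. The values of H2-D1 in Flk2+ MPPs were 442, 484 and 582 CPM at 1MO and 538, 530.4 and 604 CPM at 3MO. Its log2 fold changes were -0.03 ± 0.17 (SE) and 0.15 ± 0.17, and the ages overlapped. B2m spread widely, from 328 to 787 CPM among 3MO Flk2+ MPPs. It was at 309.8, 563 and 559.7 CPM in 1MO Ly6d- CLPs, at 356, 437 and 441 CPM in 3MO Ly6d- CLPs, at 517, 510.3 and 712 CPM in 1MO Flk2+ MPPs and at 328, 572 and 787 CPM in 3MO Flk2+ MPPs. The 95% confidence intervals of the age change were -0.26 to 0.39 for H2-K1, -0.39 to 0.33 for H2-D1 and -0.81 to 0.37 for B2m in Ly6d- CLPs, on the log2 scale. For Flk2+ MPPs they ran from -0.15 to 0.49, -0.21 to 0.51 and -0.63 to 0.55 in the same order.

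The chains of the class II molecule and its chaperone were detected in all 12 libraries at low levels, and their means were higher at 3MO in both cell types, short of the adjusted threshold. H2-Ab1, the beta chain of I-A, the class II molecule of this strain, was at 5.22, 4.74 and 4.70 CPM in 1MO Ly6d- CLPs and at 9.89, 13.1 and 7.20 CPM in 3MO Ly6d- CLPs. Its levels among Flk2+ MPPs were 7.88, 10.4 and 9.28 CPM at 1MO, then 14.6, 17.3 and 21.7 CPM at 3MO. In both cell types all 3 libraries at 3MO lay above all 3 at 1MO. The log2 fold change of H2-Ab1 was 1.04 ± 0.35 (SE) for Ly6d- CLPs and 0.96 ± 0.35 for Flk2+ MPPs, or 2.06-fold and 1.95-fold (edgeR, adjusted p = 0.685 and 1).

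Cd74, which encodes the invariant chain that fills the class II groove until peptide is loaded, was at 7.38, 8.40 and 11.7 CPM in 1MO Ly6d- CLPs and at 17.8, 20.5 and 9.25 CPM in 3MO Ly6d- CLPs, where the third library lay within the 1MO range. Among Flk2+ MPPs it held 8.12, 5.05 and 11.3 CPM at 1MO against 11.8, 17.3 and 28.2 CPM at 3MO, with no overlap of the ages. Its log2 fold changes were 0.79 ± 0.42 (SE) and 1.22 ± 0.43 (edgeR, adjusted p = 0.891 and 1). H2-Aa, the alpha chain of I-A, was at 0.989, 3.90 and 4.31 CPM in 1MO Ly6d- CLPs and at 7.77, 4.31 and 7.27 CPM in 3MO Ly6d- CLPs, with log2 fold change 1.06 ± 0.62 (SE). Levels of H2-Aa among Flk2+ MPPs were 4.10, 3.51 and 6.39 CPM at 1MO against 3.81, 12.7 and 14.3 CPM at 3MO (log2 fold change 1.14 ± 0.62), and the first 3MO library lay within the 1MO range.

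H2-Eb1 encodes the beta chain of I-E, whose alpha chain gene is not functional in C57BL/6 mice. It rested on 3 to 81 counts per library, which varied widely within each group. It was at 0.989, 0.889 and 1.71 CPM in 1MO and 2.52, 2.43 and 0.554 CPM in 3MO Ly6d- CLPs, and at 0.241, 2.09 and 3.07 CPM in 1MO and 0.423, 5.83 and 5.39 CPM in 3MO Flk2+ MPPs. The 95% confidence interval of its age change ran from -1.71 to 2.94 in Ly6d- CLPs and from -1.22 to 3.43 in Flk2+ MPPs, on the log2 scale. H2-DMa was at 40.6, 80.3 and 70.4 CPM in 1MO and 59.0, 47.5 and 65.5 CPM in 3MO Ly6d- CLPs (log2 fold change -0.16 ± 0.26, SE). Its values for Flk2+ MPPs were 39.1, 48.7 and 65.8 CPM at 1MO against 59.9, 59.4 and 74.9 CPM at 3MO (log2 fold change 0.34 ± 0.26), and the ages overlapped in both.

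Ciita encodes the coactivator of class II genes. It was at 4.23, 2.72 and 1.52 CPM in 1MO Ly6d- CLPs and at 4.14, 2.21 and 2.14 CPM in 3MO Ly6d- CLPs (log2 fold change 0.0022 ± 0.62, SE). Among Flk2+ MPPs it held 6.83, 4.17 and 1.99 CPM at 1MO against 7.30, 9.14 and 9.14 CPM at 3MO, with no overlap (log2 fold change 0.98 ± 0.61). So the means of Cd74, H2-Aa and H2-Ab1 were higher at 3MO in Ly6d- CLPs while that of Ciita was nearly the same, with an interval of -1.31 to 1.31.

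**Figure D2:**
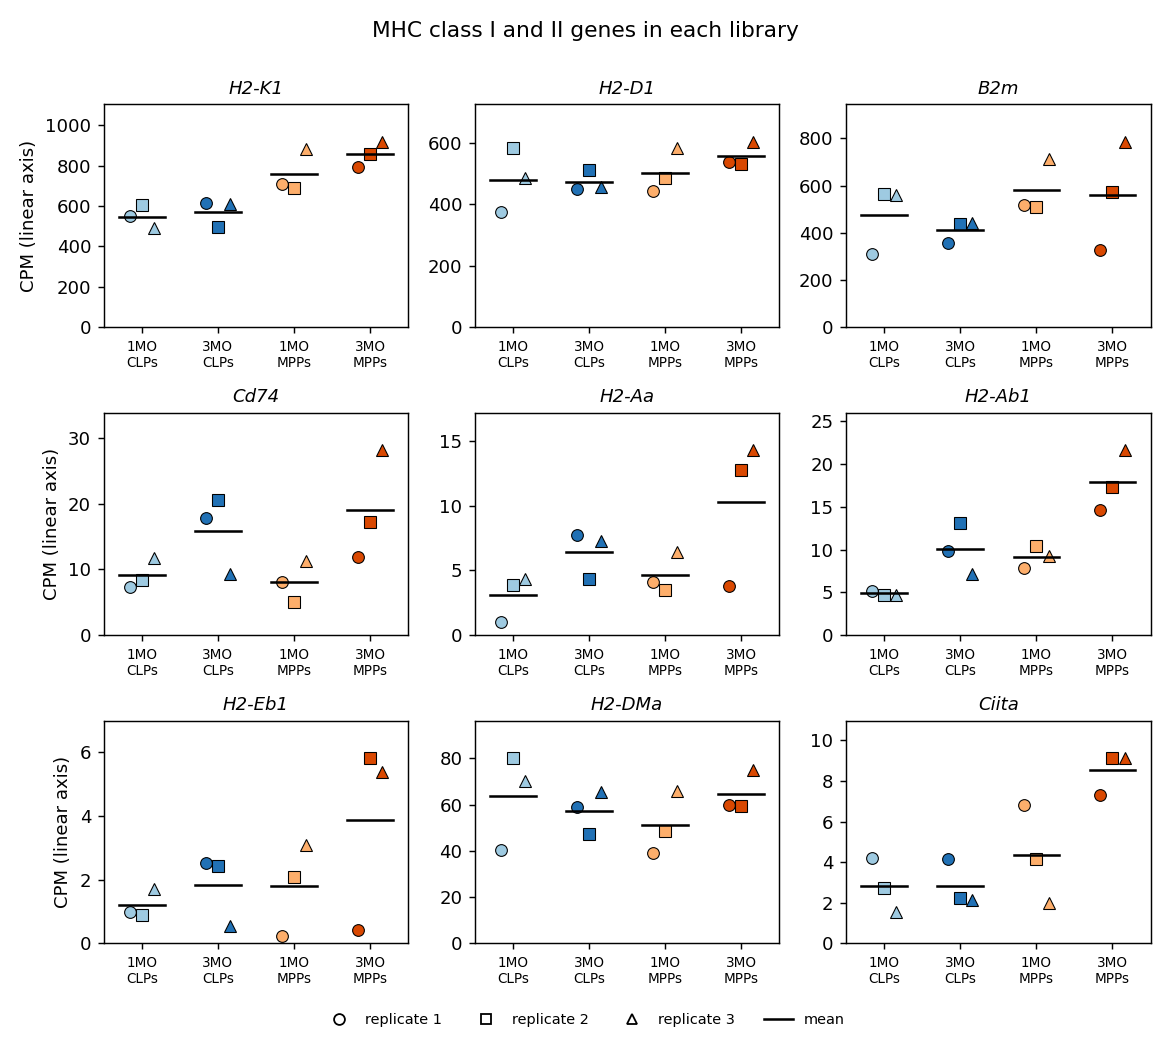
CPM (linear axis from 0) of the 9 MHC genes in each of the 12 libraries, 1 panel per gene, with a symbol per replicate and a bar at the mean of each group. All 3 values of H2-Ab1 at 3MO lie above all 3 at 1MO within each cell type, and H2-K1 is lower in every Ly6d- CLP library than in every Flk2+ MPP library.

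Counted over the 9 genes, 0 passed an adjusted p of 0.05 for age in Ly6d- CLPs, where 0.0748% of all tested genes did, and 0 passed in Flk2+ MPPs, where 0.0224% did. At an unadjusted p of 0.05, 1 of the 9 passed in Ly6d- CLPs (H2-Ab1) against 5.90% of all tested genes. Among Flk2+ MPPs 2 of the 9 passed (Cd74 and H2-Ab1) against 3.48%. DESeq2 called 0 of the 9 in either cell type, and 0.475% and 0.265% of the genes to which it gave an adjusted p. The groups did not overlap for 1 of the 9 genes in Ly6d- CLPs, against 10.6% of all tested genes, and for 3 of the 9 in Flk2+ MPPs (Cd74, H2-Ab1 and Ciita), against 8.57%. Without replicate 1 of 3MO Flk2+ MPPs, 0 of the 9 passed for age in Flk2+ MPPs, and the log2 fold change was 1.47 for Cd74, 1.53 for H2-Aa, 1.09 for H2-Ab1, 1.08 for Ciita, 1.63 for H2-Eb1, 0.39 for H2-DMa, 0.22 for H2-K1 and 0.17 for H2-D1. The value of B2m turned from -0.04 to 0.23 without that library. The median log2 fold change of the 9 genes was 0.07 for age among Ly6d- CLPs and 0.96 among Flk2+ MPPs, beside -0.01 over all tested genes in both. None of the genes passed a test of whether its age change differed between the cell types. The interaction of age and cell type called 0 of the 9 at an adjusted and 0 of the 9 at an unadjusted p of 0.05, against 0% and 3.21% of all tested genes, and DESeq2 called 0 of the 9 against 0.0396%.

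Averaged over both cell types in the same fit, a comparison added after the data were seen, Cd74, H2-Aa and H2-Ab1 had age differences close to those in each cell type. The log2 fold change was 1.00 ± 0.25 (SE) for H2-Ab1, 1.01 ± 0.30 for Cd74 and 1.10 ± 0.44 for H2-Aa, with adjusted p of 0.234, 0.442 and 0.699 in edgeR. Of the 9 genes 0 passed the adjusted threshold against 0.127% of all tested genes, and 3 passed an unadjusted p of 0.05 against 5.97%. DESeq2 called 1 of the 9, H2-Ab1 with an adjusted p of 0.00593, against 0.702% of all genes, so the call for H2-Ab1 depended on the tool. Summing the counts of the cell types that share an age and a number, 3 sums against 3, gave H2-Ab1 a log2 fold change of 1.06 ± 0.27 (SE) with an adjusted p of 0.414 in edgeR, and 0.0595% of all tested genes passed.

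In such bulk libraries more RNA per cell and more cells of a type cannot be told apart, and class II genes are abundant in mature cells. Markers of those cells were therefore read beside them. The 9 dendritic cell markers summed to 67.5 to 87.1 CPM in 1MO and 70.4 to 80.4 CPM in 3MO Ly6d- CLPs, and to 21.5 to 23.4 CPM in 1MO and 20.4 to 40.1 CPM in 3MO Flk2+ MPPs. Xcr1 had no count in any library, and 0 of the 6 tested dendritic cell markers passed for age in either cell type. In Ly6d- CLPs 2 of these 6 had a positive log2 fold change for age, with a median of -0.11, and in Flk2+ MPPs 4 of 6 did, with a median of 0.38. The 7 plasmacytoid dendritic cell markers summed to 155 to 184 CPM in 1MO and 127 to 144 CPM in 3MO Ly6d- CLPs, and to 42.1 to 56.8 CPM and 42.1 to 66.3 CPM in Flk2+ MPPs. For age 1 of the 5 tested had a positive log2 fold change in Ly6d- CLPs, with a median of -0.40, and 4 of 5 did in Flk2+ MPPs, with a median of 0.17, and 0 passed in either. The 10 B lineage markers summed to 851 to 951 CPM in 1MO and 719.5 to 867 CPM in 3MO Ly6d- CLPs, and 0 of the 8 tested passed for age, with a median log2 fold change of -0.93. In Flk2+ MPPs they summed to 238 to 249.6 CPM at 1MO and 226 to 338 CPM at 3MO, 5 of 8 had a positive log2 fold change, with a median of 0.55, and 0 passed. The 8 monocyte and macrophage markers summed to 284 to 292 CPM in 1MO and 226 to 394 CPM in 3MO Ly6d- CLPs, and to 188 to 248 CPM and 222 to 349 CPM in Flk2+ MPPs. Their median log2 fold change for age was -0.01 in Ly6d- CLPs and 0.57 in Flk2+ MPPs, where 5 of 7 were positive, and 0 of 7 passed in either. The 7 granulocyte markers summed to 869 to 1238 CPM in 1MO and 801 to 1064 CPM in 3MO Ly6d- CLPs. In Flk2+ MPPs they summed to 598 to 736 CPM at 1MO and 562 to 883 CPM at 3MO, so the sums overlapped in both. Their median log2 fold change for age was 0.81 in Ly6d- CLPs and 1.60 in Flk2+ MPPs, and 0 of 7 passed in either. The 6 stromal markers summed to 204 to 579 CPM in 1MO and to 0 to 7.99 CPM in 3MO Ly6d- CLPs, where 2 of 4 tested (Col1a1 and Col1a2, collagen chains) fell with age. Of the 6 Ly6d- CLP markers 1 fell with age in Ly6d- CLPs, the recombinase gene Rag1. The part of any of these cells in the class II values was not tested.

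H2-K1 was lower in Ly6d- CLPs than in Flk2+ MPPs at 3MO and over both ages, while H2-D1 and B2m did not pass the test. Every Ly6d- CLP library, at 491 to 616 CPM, lay below every Flk2+ MPP library, at 689 to 919.8 CPM. The log2 fold change of H2-K1 (Ly6d- CLPs minus Flk2+ MPPs) was -0.47 ± 0.15 (SE) at 1MO, with an adjusted p of 0.0925 in edgeR and 0.0353 in DESeq2. At 3MO it was -0.58 ± 0.15 with an adjusted p of 0.0326 in edgeR, and over both ages -0.53 ± 0.11 with an adjusted p of 0.00328. The 3MO call rested on single libraries. It held without replicate 1 of the Flk2+ MPPs (adjusted p = 0.0367 in edgeR), but not without their replicate 2 (0.0788) or 3 (0.0958), nor without replicate 1 (0.0690), 2 (0.140) or 3 (0.0704) of the Ly6d- CLPs. It did not hold either in a fit of the 6 libraries of 3MO alone (adjusted p = 0.0788 in edgeR), while the call over both ages held with each of the 12 libraries left out. With the counts of H2-K1 and H2-D1 summed, as a guard against reads divided between them, the log2 fold change was -0.30 at 1MO, -0.44 at 3MO and -0.37 over both ages, with adjusted p of 0.339, 0.0944 and 0.0251 in edgeR. The summed fit over both ages was added after the data were seen. H2-D1 had log2 fold changes of -0.07 ± 0.17 (SE) at 1MO and -0.24 ± 0.17 at 3MO, and B2m of -0.28 ± 0.28 and -0.45 ± 0.28. With a library left out, the value of B2m ran from -0.42 (without replicate 2 of the Ly6d- CLPs) to -0.047 (without their replicate 1) at 1MO, and from -0.73 (without replicate 1 of the Flk2+ MPPs) to -0.13 (without their replicate 3) at 3MO.

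Among the class II genes, the mean levels of H2-Ab1, Ciita, H2-Aa and H2-Eb1 were lower in Ly6d- CLPs at both ages, and H2-Ab1 passed the test over both ages. H2-Ab1 did not overlap between the cell types at either age, with log2 fold changes of -0.91 ± 0.35 (SE) at 1MO and -0.83 ± 0.35 at 3MO (adjusted p = 0.188 and 0.202 in edgeR). Over both ages it was -0.87 ± 0.25, with an adjusted p of 0.0285 in edgeR. It was lost with no filter on low counts (adjusted p = 0.0817) and with a replicate block of age and number (0.0583), both in edgeR. It was also lost without any one of 8 libraries: replicates 2 and 3 of 1MO Flk2+ MPPs (adjusted p = 0.0753 and 0.0614), replicates 2 and 3 of 1MO Ly6d- CLPs (0.0672 and 0.0628), replicates 2 and 3 of 3MO Flk2+ MPPs (0.0571 and 0.0886) and, of 3MO Ly6d- CLPs, replicates 1 and 3 (0.0614 and 0.0690), all by edgeR. Ciita did not overlap at 3MO, where its log2 fold change was -1.60 ± 0.62 (SE, adjusted p = 0.165 in edgeR), and at 1MO it was -0.62 ± 0.61, a value that ran from -1.02 without replicate 1 of the Ly6d- CLPs to -0.12 without replicate 1 of the Flk2+ MPPs. Over both ages it was -1.11 ± 0.44, with an adjusted p of 0.121 in edgeR and 0.0456 in DESeq2. Cd74 had log2 fold changes of 0.16 ± 0.42 and -0.27 ± 0.42, and H2-DMa of 0.32 ± 0.26 and -0.18 ± 0.26. The value of H2-DMa ran from 0.11 to 0.55 at 1MO and from -0.28 to -0.057 at 3MO with a library left out. H2-Aa had log2 fold changes of -0.60 ± 0.62 and -0.68 ± 0.61, and H2-Eb1 of -0.59 ± 1.09 and -1.08 ± 1.09 at 1MO and 3MO. With a library left out, H2-Aa ran from -0.91 to -0.19 at 1MO and from -1.07 to -0.37 at 3MO. Over both ages H2-Eb1 had -0.83 ± 0.77, and the intervals of Cd74, H2-DMa, H2-Aa and H2-Eb1 all held 0. With the other settings of the closing section, besides left-out libraries, H2-Eb1 ran from -0.57 to -0.17 at 1MO and from -1.09 to -0.49 at 3MO. Over both ages it ran from -0.83 to -0.38 with them.

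**Figure D3:**
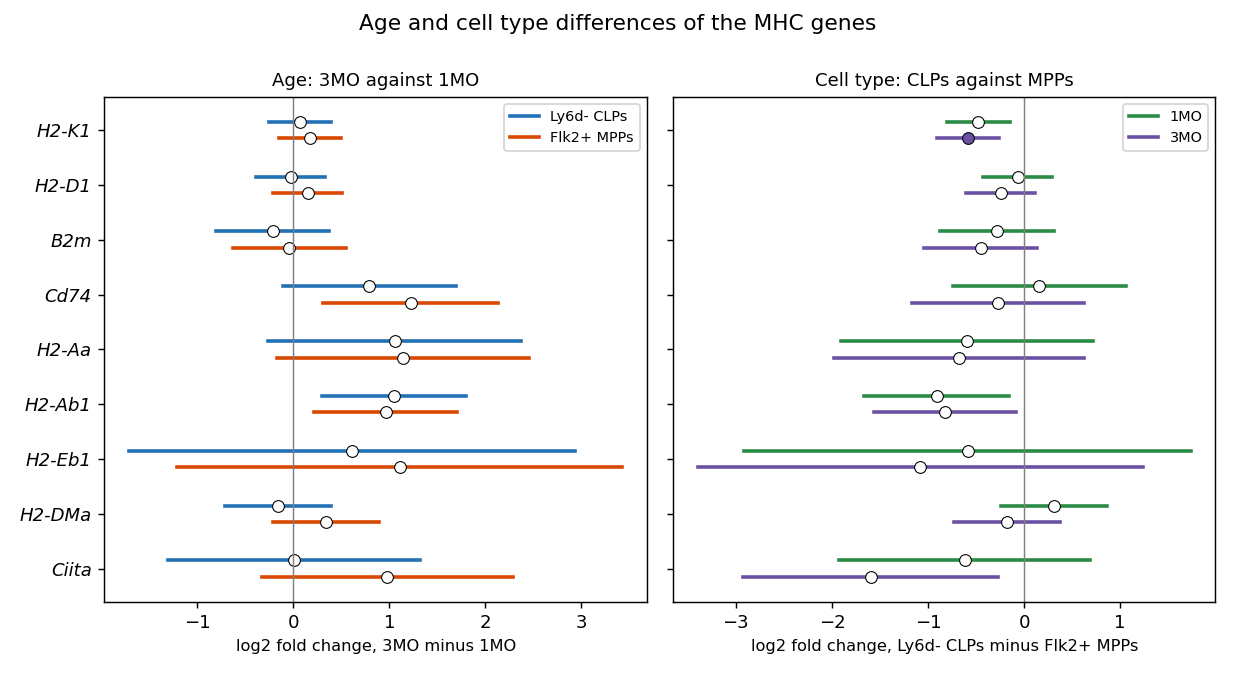
Log2 fold changes of the 9 MHC genes with 95% confidence intervals from the edgeR fit, for age within each cell type (left) and for cell type within each age (right), where a filled point marks an adjusted p under 0.05. The only filled point is H2-K1 between cell types at 3MO, at -0.58.

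For cell type, 0 of the 9 genes passed at 1MO against 5.38% of all tested genes, and 1 of the 9 passed at 3MO against 6.07%. At 1MO, 2 of the 9 passed an unadjusted p of 0.05 (H2-K1 and H2-Ab1) against 15.8%, and DESeq2 called 1 of the 9 (H2-K1) against 8.85%. The cell types did not overlap for 2 of the 9 at 1MO, against 24.9% of all tested genes, and for 4 of the 9 at 3MO (H2-K1, H2-D1, H2-Ab1 and Ciita), against 21.8%. Over both ages, a comparison added after the data were seen, 2 of the 9 passed against 13.3%, and DESeq2 called 3 (Ciita as well) against 16.2%. At 3MO DESeq2 called 1 of the 9 (H2-K1) against 9.65%. Of the 9 log2 fold changes, 7 were negative at 1MO and 9 at 3MO, with medians of -0.47 and -0.58, beside -0.02 and -0.03 over all tested genes. Markers of mature class II cells were read here too: of the tested dendritic cell markers 2 of 6 were higher in Ly6d- CLPs at each age, as were 3 of 5 plasmacytoid dendritic cell markers at 1MO and 2 of 5 at 3MO. Of 8 tested B lineage markers 2 were higher at 1MO (Ebf1 and Ighm) and 3 at 3MO (with Pax5), and Igkc was lower at both ages. Of 7 monocyte and macrophage markers 2 were higher at 1MO (Csf1r and Ly6c2) and 1 at 3MO (Csf1r). The part of these cells in the values of the MHC genes was not tested.

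The ratio of H2-K1 to H2-D1 within a library does not depend on the scaling of the libraries. It was singled out after the calls of both genes were seen, so it is given as a description, with no test. The ratios of 1MO Ly6d- CLPs were 1.47, 1.04 and 1.01, and those of 3MO Ly6d- CLPs 1.37, 0.969 and 1.34. The ratios of 1MO Flk2+ MPPs were 1.61, 1.42 and 1.52, and those of 3MO Flk2+ MPPs 1.48, 1.62 and 1.52. The means were 1.17 ± 0.256 (SD, n = 3) and 1.23 ± 0.224 in Ly6d- CLPs, against 1.52 ± 0.0925 and 1.54 ± 0.0689 in Flk2+ MPPs. The 3 values of Ly6d- CLPs at 3MO lay below the 3 of Flk2+ MPPs, while at 1MO the first Ly6d- CLP library lay within their range. The mean difference of the log2 ratio (Ly6d- CLPs minus Flk2+ MPPs) was -0.37. The difference was between -0.45 and -0.29 with each library left out.

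**Figure D4:**
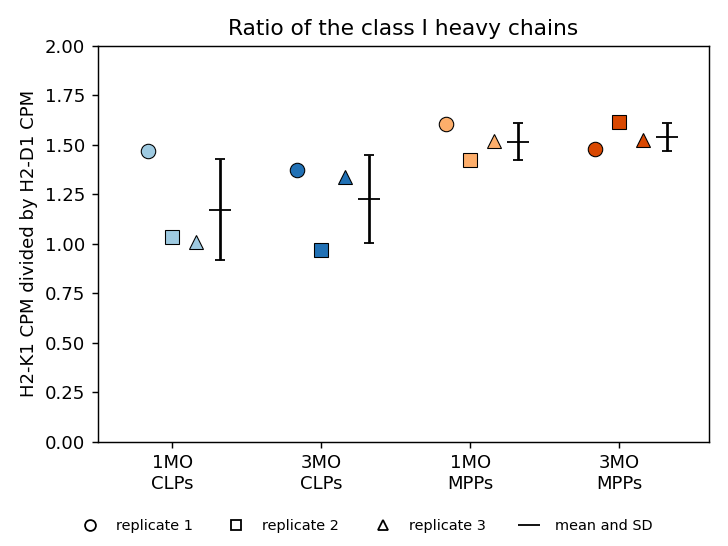
Ratio of the CPM of H2-K1 to that of H2-D1 in each library (linear axis from 0), with the mean and SD of each group beside its 3 points. The Flk2+ MPP libraries lie between 1.42 and 1.62 and the Ly6d- CLP libraries between 0.969 and 1.47.

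Across the 12 libraries the 9 genes did not follow a single pattern. The Pearson correlation of log2 CPM was 0.48 to 0.70 among the 3 pairs of class I genes, with a median of 0.55, and -0.21 to 0.67 among the 15 pairs of class II genes, with a median of 0.51. It was highest within class II for Cd74 with H2-Aa (0.67) and lowest for H2-DMa with Ciita (-0.21). The 18 pairs across the classes ran from -0.01 to 0.72, with a median of 0.45, and H2-D1 with H2-DMa had the highest value of all pairs. Outside the 9 genes, the tested genes with the most similar pattern to Cd74 were Fam234a (r = 0.84), Rnase12 (0.84), Tcf25 (0.83), Slamf8 (0.82) and Ddit4 (0.80), of which Rnase12 and Slamf8 stayed at or below 1.11 CPM. For B2m they were Rgs19 (0.95), Snhg8 (0.94), Ftl1 (0.94), Rpl23 (0.93) and Srgn (0.93). These libraries share 4 groups and a depth each, and the genes were picked for their r, so the values describe these 12 libraries only.

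Other genes of antigen presentation were read from 6 lists with 67 genes, of which 61 were in the table and 56 were tested. For age, 0 of the 56 passed in Ly6d- CLPs and 0 in Flk2+ MPPs with edgeR, against 0.0748% and 0.0224% of all tested genes, while DESeq2 called 2 in each, against 0.475% and 0.265%. The DESeq2 calls were H2-Q6 and H2-Q7 both times, class I genes of the Qa region that encode Qa-2, a nonclassical class I molecule tethered to the membrane by a lipid anchor. H2-Q6 spans chr17:35424850-35430055 and H2-Q7 chr17:35439155-35443773, both on the plus strand. Their promoter windows are shown because these were the genes called for age. Each holds GGGGATTCC, as the windows of H2-K1 and H2-D1 do, and 2 copies of ATTGG, 1 on each strand.
H2-Q6 (chr17:35424600-35424899, plus strand): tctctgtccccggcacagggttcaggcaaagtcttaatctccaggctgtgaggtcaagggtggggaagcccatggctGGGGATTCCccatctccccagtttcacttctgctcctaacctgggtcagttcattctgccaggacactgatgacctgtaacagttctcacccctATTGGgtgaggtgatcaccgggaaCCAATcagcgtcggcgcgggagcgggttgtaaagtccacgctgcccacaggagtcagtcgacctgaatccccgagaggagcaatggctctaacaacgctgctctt
H2-Q7 (chr17:35438905-35439204, plus strand): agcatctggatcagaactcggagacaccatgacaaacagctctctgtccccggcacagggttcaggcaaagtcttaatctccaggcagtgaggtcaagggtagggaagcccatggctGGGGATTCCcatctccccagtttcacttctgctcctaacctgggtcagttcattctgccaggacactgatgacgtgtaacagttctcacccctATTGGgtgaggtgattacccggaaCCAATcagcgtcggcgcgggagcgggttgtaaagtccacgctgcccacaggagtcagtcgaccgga
GGGGATTCC covered bases -173 to -165 before the annotated start of H2-Q6 and -133 to -125 before that of H2-Q7.

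H2-Q6 stood at 47.9, 62.4 and 28.2 CPM in 1MO and at 111, 108 and 90.0 CPM in 3MO Ly6d- CLPs. Among Flk2+ MPPs its levels were 72.6, 84.0 and 68.0 CPM at 1MO against 183, 161 and 159 CPM at 3MO. The ages did not overlap in either cell type, with log2 fold changes of 1.15 ± 0.23 (SE) for Ly6d- CLPs and 1.16 ± 0.23 for Flk2+ MPPs. The adjusted p was 0.133 and 0.316 in edgeR, and 0.00157 and 0.00334 in DESeq2. H2-Q7 stood at 93.0, 114 and 73.5 CPM in 1MO and at 199.97, 135 and 165 CPM in 3MO Ly6d- CLPs. The Flk2+ MPP libraries held 135, 173 and 135 CPM at 1MO against 321, 238 and 273 CPM at 3MO, again with no overlap. Its log2 fold changes were 0.83 ± 0.20 (SE) and 0.91 ± 0.20, with an adjusted p of 0.300 and 0.363 in edgeR, and 0.0281 and 0.0145 in DESeq2. Over both cell types, both rose with age: H2-Q6 by a log2 fold change of 1.16 ± 0.16 (adjusted p = 0.00652 in edgeR) and H2-Q7 by 0.87 ± 0.14 (0.0166). The call of H2-Q6 held with each library left out and with the cell types summed (adjusted p = 0.0295 in edgeR), and that of H2-Q7 did not hold with them summed (0.110). It was also lost without replicate 1 (0.0894) or 3 (0.0644) of 1MO Flk2+ MPPs, replicate 3 of 1MO Ly6d- CLPs (0.0507), or replicate 1 (0.0532) or 3 (0.0524) of 3MO Ly6d- CLPs. H2-Q6 was singled out after its values were seen. Of its 31-base words 50.3% occur in another gene's transcripts, 24.6% in those of H2-Q4 and 18.4% in those of H2-Q7. For H2-Q7 the share is 48.1%, with 29.1% in transcripts of H2-Q5 and 23.5% in those of H2-Q6, so the values of single Qa genes are uncertain. H2-Q4, the third abundant gene of this region, overlapped between the ages, with log2 fold changes of 0.25 ± 0.18 (SE) and -0.04 ± 0.17.

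**Figure D5:**
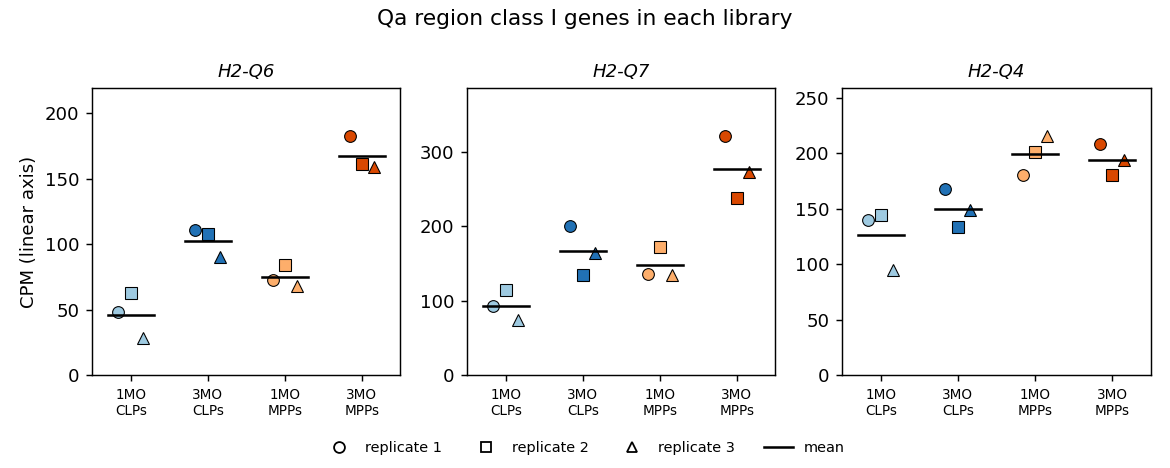
CPM (linear axis from 0) of H2-Q6, H2-Q7 and H2-Q4 in each library, with a symbol per replicate and a bar at the mean of each group. For H2-Q6 and H2-Q7 all 3 values at 3MO lie above all 3 at 1MO within each cell type, and for H2-Q4 the ages overlap.

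Between the cell types, 5 of the 56 pathway genes passed at 1MO, 4 higher and 1 lower in Ly6d- CLPs, and 5 at 3MO (9 with a replicate block of age and number), 3 higher and 2 lower, against 5.38% and 6.07% of all tested genes. Over both ages 12 passed, 5 higher and 7 lower, against 13.3%. Of 11 tested relatives of the class I chains 1 passed at each age: H2-Q4 at 1MO (-0.66 ± 0.18 SE, adjusted p = 0.0396 in edgeR) and H2-Q7 at 3MO (-0.74 ± 0.20, 0.0405). Neither held in a fit of only the 6 libraries compared (adjusted p = 0.0715 and 0.0788 in edgeR). Their log2 fold changes were positive for 2 of 11 at 1MO and 1 of 11 at 3MO, against 47.8% and 47.5% of all tested genes, with medians of -0.66 and -0.71. Over both ages 4 of the 11 passed, all lower in Ly6d- CLPs: H2-Q4 (-0.52), H2-Q6 (-0.70), H2-Q7 (-0.70) and Mr1 (-0.95), which presents vitamin B metabolites. The call of Mr1 was lost without replicate 2 of 3MO Flk2+ MPPs (adjusted p = 0.0507 in edgeR). Of the 13 genes that supply and load class I peptide, such as the transporter subunits Tap1 and Tap2, 0 passed at either age or for age. The 2 of them with the smallest p, the loading factor Tapbp and the trimming peptidase Erap1, had log2 fold changes for age of -0.30 ± 0.21 (SE) and 0.57 ± 0.28 in Ly6d- CLPs, and of 0.35 ± 0.21 and -0.02 ± 0.28 in Flk2+ MPPs. The interaction of Tapbp was -0.65 ± 0.30 (adjusted p = 1.00 in edgeR).

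Of 5 other class II chains and chaperones 1 was higher in Ly6d- CLPs at each age, and of 8 genes of class II peptide supply and turnover 2 were at 1MO and 1 at 3MO, against 5.38% and 6.07% of all tested genes called in either direction. At 1MO 3 of the 5 and 7 of the 8 had a positive log2 fold change, with medians of 0.77 and 0.80, and at 3MO 2 of the 5 and 4 of the 8 did, with medians of -0.13 and 0.07. H2-Ob, the beta chain of H2-DO, which restrains H2-DM, was at 173 to 274 CPM in Ly6d- CLPs and 87.0 to 132 CPM in Flk2+ MPPs. Its log2 fold changes were 1.00 ± 0.20 (SE) at 1MO and 0.97 ± 0.20 at 3MO (adjusted p = 0.00685 and 0.00895 in edgeR). Lgmn, an endosomal protease, was higher by 2.31 ± 0.46 and 1.76 ± 0.45 (0.00556 and 0.0294), and the cathepsin Ctsb by 1.11 ± 0.21 at 1MO (0.00403). The partner chains of H2-DMa, H2-DMb1 and H2-DMb2, stood between 3.05 and 35.6 CPM, and 0 of these 2 passed in any comparison. Of the 13 MHC transcription factors, Irf8, which directs dendritic cell and lymphoid fate, was higher in Ly6d- CLPs by 3.58 ± 0.22 at 1MO and 3.09 ± 0.21 at 3MO (adjusted p = 1.49e-07 and 8.92e-07 in edgeR). Markers of dendritic cells (Itgax and Ccr7) and of plasmacytoid dendritic cells (Siglech and Cox6a2, with Pacsin1 at 1MO) were higher in the same comparisons. Their lists had median log2 fold changes of 1.60 and 2.07 at 1MO and of 1.46 and 0.74 at 3MO, and the part of such cells in the values of Irf8, Lgmn, Ctsb and H2-Ob was not tested. Rfx5, which binds the X box of class II promoters, was lower at 3MO by a log2 fold change of -0.74 ± 0.19 (0.0272 in edgeR), a call lost in a fit of the 6 libraries of 3MO alone (0.0968). Irf1, an interferon-induced activator of class I genes, had a log2 fold change of -0.63 ± 0.20 at 3MO (adjusted p = 0.0777 in edgeR and 0.0365 in DESeq2). Over both ages it was -0.44 ± 0.14 (adjusted p = 0.0496 in edgeR), a call lost with DESeq2 size factors (0.0571) and with no filter on low counts (0.0568), both in edgeR. Of the 12 fits with a library left out it held in the one without replicate 3 of 3MO Flk2+ MPPs (adjusted p = 0.0322 in edgeR), and in the others the adjusted p reached 0.122. Nlrc5, the coactivator of class I genes, stood at 76.3 to 220.2 CPM and did not pass. Of the 6 tested genes of interferon gamma signalling 0 passed at either age, and Jak2 had log2 fold changes between cell types of -0.44 ± 0.18 (SE) and -0.49 ± 0.19. Over both ages Jak2 passed, at -0.47 ± 0.13 (adjusted p = 0.0268 in edgeR), a call lost without replicate 1 of 1MO Flk2+ MPPs (0.0693), replicates 2 (0.0696) or 3 (0.0603) of 1MO Ly6d- CLPs, or replicates 1 (0.0705) or 3 (0.0550) of 3MO Ly6d- CLPs. Of the calls at a single age, some held with few of the libraries left out: H2-Q4 only without replicate 1 of 1MO Ly6d- CLPs, H2-Q7 only without replicate 2 of 3MO Flk2+ MPPs or replicate 1 of 3MO Ly6d- CLPs, Lgmn at 3MO only without replicate 3 and Rfx5 only without replicate 2 of 3MO Flk2+ MPPs. Their adjusted p reached 0.196, 0.157, 0.104 and 0.107 in that order, by edgeR, while over both ages all 4 calls held with each of the 12 libraries left out. H2-Ob, Irf8, Ctsb at 1MO and Lgmn at 1MO held in every such fit.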

How the data were processed

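Bulk RNA-seq libraries of 12 sorted samples in 4 groups of 3 were read from the deposited gene table. The authors' values are estimated counts per gene, length scaled and merged over samples; the notes that come with the samples name FastQC, UMI-tools, Trim Galore, STAR, Salmon and DESeq2 and the build mm10, without versions. All 12 columns were matched to samples by description, 0 columns were left unmapped, and no 2 libraries held identical values.

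Counts were rounded to whole numbers, and 13367 of 32285 genes were kept by filterByExpr of edgeR 4.0.16 (R 4.3.3, limma 3.58.1). A quasi-likelihood fit of all 4 groups with TMM scaling gave log2 fold changes, standard errors, 95% confidence intervals and Benjamini-Hochberg adjusted p over all tested genes, called under 0.05. Log2 CPM for correlations used a prior count of 2. The script was tested on simulated data. DESeq2 1.42.0 and the alternatives listed in the closing section were run on the same counts. Per length values used the median length of a gene's coding transcripts in GENCODE M21, which paired 32235 gene identifiers. Figures were drawn with matplotlib 3.10.9 in Python 3.11.15.

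The 9 genes and the lists were chosen with earlier results of these data known. Named pathway genes were those called at an adjusted p of 0.05 in a comparison of the design (at most 6 per list), otherwise the 2 of a list with the smallest p. H2-Q6, the comparisons averaged over cell types or ages (and the genes named from them), the summed cell types and the ratio of H2-K1 to H2-D1 were chosen after values were seen. Genes of similar pattern were the 5 with the highest Pearson correlation with Cd74 and with B2m. One lineage marker is not reported here and was left out of its list.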

Additional observations from a re-analysis of the deposited data

How the results depend on the processing

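The settings tried were DESeq2 size factors, the DESeq2 Wald test, no filter on low counts, only the samples of the groups compared, a replicate block, a block of age and number, H2-K1 and H2-D1 summed, cell types summed and each library left out. Over 91 gene results, 472 of 493 settings other than left-out libraries kept the direction and the side of the threshold, 12 lost a call, 4 gained one and 5 turned the direction, and of 804 fits without a library 705 kept both, 64 lost a call and 35 turned the direction. Most of these results were not called in the main fit, so keeping the side of the threshold says little for them. Among the calls, H2-K1 at 3MO held in 1 of 6 fits without a library and H2-Ab1 over both ages in 4 of 12. The call of H2-K1 over both ages held in 12 of 12. With 3 libraries a group, low counts of H2-Eb1 and the spread of B2m limit what can be seen. The median log2 fold change over all genes was -0.01 with TMM and -0.0035 with DESeq2 size factors for age in Ly6d- CLPs, and -0.03 and -0.02 between cell types at 3MO.

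The sources used here do not say whether a replicate number marks a shared mouse or day, and the data did not show it for every pair. Deviations of same-numbered libraries from their group means correlated between -0.03 and 0.21. For 4 of 12 libraries, the library of their own number correlated best with them in every one of the other groups. A replicate block gave 0.0018 for Cd74 between cell types over both ages, 0.24 for the interaction of H2-Aa (0.22 with a block of age and number), on the log2 scale, and 1 called pathway gene for age in Ly6d- CLPs, against 0 without it. With a block of age and number, 1 of the 9 genes (H2-K1, without H2-Ab1) was called between cell types over both ages, against 2, and 9 pathway genes at 3MO, against 5. Other calls with a block are within 1.5 times the counts without it.

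The direction also turned for Ciita for age in Ly6d- CLPs with no filter (-0.020) and for H2-D1 with H2-K1 and H2-D1 summed (0.023 for age in Ly6d- CLPs). DESeq2 called 1 of the 9 genes for age over both cell types and 1 between cell types at 1MO. With only the groups compared, 0 of the 9 and 3 pathway genes were called at 3MO, and with no filter 1 of the 9 over both ages. DESeq2 and no filter each called 2 pathway genes for age in each cell type, and the summed cell types 1 for age against 2. The cause of these changes was not tested.

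With each library left out, the log2 fold changes that turned ran as follows. For age in Ly6d- CLPs they ran from -0.0090 to 0.16 for H2-K1, -0.18 to 0.13 for H2-D1, -0.40 to 0.045 for H2-DMa and -0.38 to 0.40 for Ciita, and for age in Flk2+ MPPs from -0.37 to 0.23 for B2m. For age over both cell types they ran from -0.29 to 0.0059 for B2m, -0.016 to 0.14 for H2-D1 and -0.030 to 0.20 for H2-DMa. For the interaction they ran from -0.45 to 0.15 for B2m, -0.49 to 0.23 for H2-Aa, -0.16 to 0.28 for H2-Ab1 and -1.14 to 0.025 for H2-Eb1. Between cell types at 1MO they ran from -0.089 to 0.47 for Cd74, -0.23 to 0.086 for H2-D1 and -1.11 to 0.057 for H2-Eb1, at 3MO from -0.52 to 0.12 for Cd74, and over both ages from -0.18 to 0.14 for Cd74 and -0.032 to 0.19 for H2-DMa. Called genes among the 9 ran from 0 to 1 at 3MO and 1 to 2 over both ages, and called pathway genes from 0 to 1 for age in Ly6d- CLPs, 1 to 2 for age over both cell types and 2 to 4 at 3MO.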

Other observations

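H2-DMb1 and H2-DMb2, which encode beta chains of H2-DM, had log2 fold changes for age of 0.90 ± 0.39 (SE) and 0.97 ± 0.45 in Flk2+ MPPs, short of the adjusted threshold (adjusted p = 1 for both in edgeR). H2-DMb1 was at 11.3, 11.6 and 10.5 CPM in 1MO Ly6d- CLPs and at 17.3, 14.9 and 21.8 CPM in 3MO Ly6d- CLPs, with no overlap, and its log2 fold change there was 0.69 ± 0.39 (adjusted p = 0.896 in edgeR). In Flk2+ MPPs H2-DMb1 overlapped between the ages, at 6.91, 13.7 and 13.6 CPM and 35.6, 13.2 and 15.4 CPM. H2-DMb2 did not overlap in Flk2+ MPPs, and in Ly6d- CLPs it overlapped, with a log2 fold change of 0.07 ± 0.44. H2-Eb2, a class II beta chain gene next to H2-Eb1, was at 5.04, 2.27 and 4.19 CPM in 1MO Ly6d- CLPs, at 0.706, 2.27 and 0.395 CPM in 3MO Ly6d- CLPs and at 0.482 CPM or less in each Flk2+ MPP library. Over both ages it was higher in Ly6d- CLPs by a log2 fold change of 3.34 ± 1.05 (SE, adjusted p = 0.0463 in edgeR), a fitted value that rests on libraries without a count. The value ran from 2.82 without replicate 2 of 3MO Ly6d- CLPs to 5.49 without replicate 3 of 1MO Flk2+ MPPs. The call held in 2 of 12 fits without a library, with an adjusted p of up to 0.114, and was lost with a replicate block (0.0515) and a block of age and number (0.0587), all by edgeR. H2-Eb2 thus differed in direction from H2-Eb1, whose log2 fold change was -0.83 ± 0.77, and the difference between both genes was not tested. The value of H2-Eb1 did not pass (adjusted p = 0.583 in edgeR) and went as far as -0.38 with the other settings. These genes were singled out after their values were seen.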
